A study of Mus musculus with 25 samples.

Results

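The genes described here encode proteins of the mitochondrial ribosome and of the respiratory chain and ATP synthase. They were taken by symbol: every gene name that the authors attached to a bin of either TKO interaction list and that starts with Mrpl, Mrps, Nduf, Uqcr or Atp5, or with Cox followed by 4 to 8. The rule found 135 genes in 132 bins of 10 kb, out of 12695 annotated genes in 10485 bins. There were 42 Mrpl genes (large ribosomal subunit), 23 Mrps genes (small ribosomal subunit) and 35 Nduf genes (complex I, but for Ndufa4 and its paralog Ndufa4l2). There were also 7 Uqcr genes (complex III), 13 Atp5 genes (ATP synthase) and 15 Cox genes (complex IV). A bin pair with at least 1 anchor in one of the 132 bins is called a member pair below.

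Contacts were measured in 25 mouse libraries that form 9 groups, each with 1 interaction list. HiChIP, which ligates DNA ends lying close together and then precipitates them with an antibody, was done against KLF4, a transcription factor, and against H3K27ac, an acetylated form of histone H3 found where promoters and enhancers are active. Hi-C used ligation alone. H3K27ac libraries came from mouse embryonic fibroblasts (MEF, 2 libraries), embryonic stem cells (ES, 2), and TKO cells without doxycycline (0 h, 3) and after 24 h of it (3). KLF4 libraries came from reprogramming day 3 (3), day 6 (4) and ES (4), and Hi-C libraries from MEF (2) and ES (2). The MEF were derived from E13.5 embryos heterozygous for an Oct4-GFP reporter, the OKSM cassette and rtTA3, and were taken at passage 3. These alleles were shared by the day 3 and day 6 cells, which had also received doxycycline and ascorbic acid. Day 3 cells were a bulk population and day 6 cells had been sorted for SSEA1. ES and TKO cells were both labelled V6.5 and grown in 2i medium, and the labels do not spell out the TKO alleles. The labels do not say whether replicates came from separate cultures, so p-values measure the spread between these libraries, which may be technical. In bulk libraries a contact made in fewer cells and one made less often per cell cannot be told apart.

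HiChIP depth ran from 48.7 to 181 M contacts per library, and listed pairs had medians of 11 to 47 counts. The MEF H3K27ac libraries held 90.1 ± 21.3 M contacts (SD, n = 2), fewer than the 167 ± 1.39 M (SD, n = 2) of the ES H3K27ac libraries. Of 12 pluripotency genes checked, such as Nanog, Pou5f1 and Sall4, 10 were annotated, and their bins had 3 listed H3K27ac pairs in MEF against 133 in ES. Of 12 fibroblast genes, such as Thy1, Col1a1 and Vim, 6 were annotated, with 37 pairs in MEF against 8 in ES. Of these 6 genes 5 had more pairs in MEF, and 1, Fn1, had more in ES (1 in MEF and 5 in ES).

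Mitochondrial ribosomes translate the few proteins encoded by mitochondrial DNA, and all proteins of these ribosomes are made from nuclear genes. Complexes I, III and IV pass electrons to oxygen and pump protons across the inner membrane, and ATP synthase uses the returning protons to make ATP. Most of these nuclear genes are expressed in nearly every cell type. Their promoters are known for sites of NRF1, of ETS factors such as GABP, and of YY1.

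Gene names came from the 2 TKO lists alone, and each of the 135 genes had 1 bin. A gene was therefore annotated because its bin took part in a listed contact in TKO cells, and this holds for the members and for the 12695 genes they are set against. ES and TKO cells were both labelled V6.5, so this choice can favour contacts seen in ES over those seen in MEF. The size of that effect was not tested. H3K27ac peaks at both 0 h and 24 h were marked in 129 of the 132 bins (97.7%), against 71.6% of all annotated bins. The bins of Atp5d, Cox4i2 and Mrps24 had a peak at neither time. The bins were also rich in genes: 47.7% held at least 2 annotated genes, against 19.6% of annotated bins, and 60 of them held a gene that is no member. Mrpl46 and Mrps11, Mrpl47 and Ndufb5, and Mrpl36 and Ndufs6 each shared 1 bin, so the values of each of these pairs of genes are the same. What a bin contributed to a contact cannot be assigned to 1 gene where it held more.

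Promoter sequences were available from RefSeq (GRCm38.p6, the build called mm10) for 113 of the 135 genes, and for 109 the start site fell in the annotated bin. The start sites of Atp5d, Mrpl33, Mrpl36 and Mrps24 fell outside it. In the 250 bases before the start, the ETS core CCGGAA occurred on either strand in 35 of 109 members (32.1%), in 21.2% of 8868 annotated genes and in 12.03% of all 32851 promoters of the table. The NRF1 core, a GCGC followed by any 2 bases and a second GCGC, which reads the same on both strands, occurred in 18 members (16.5%), in 9.78% of annotated genes and in 4.98% of all promoters. The YY1 core AAGATGG was at 4.59%, 4.65% and 4.49%, and the KLF core GGGCGTG at 11.9%, 12.7% and 7.55%. The median GC content of the windows was 57.2% in members and 59.2% in annotated genes. These matches are descriptions of letters and no evidence of binding. The ETS and NRF1 letters were thus more frequent in members than in annotated genes, and the YY1 and KLF letters were not.

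Windows of 5 members that carry results below are shown 5′ to 3′ in the direction of the gene, with every match to the 4 cores in capitals. None overlaps another annotated gene. They are Mrpl39 (chr16:84735245-84735494, minus strand), whose bin contacted that of Atp5j; Cox7a1 (chr7:30183921-30184170, plus strand), whose strongest contact differed in both H3K27ac comparisons; Uqcr11 (chr10:80406822-80407071, minus strand), a contact of which rose with doxycycline; Mrpl52 (chr14:54426659-54426908, plus strand), with contacts that fell and 1 that rose from MEF to ES; and Cox7b (chrX:106015450-106015699, plus strand), which had the most listed pairs of any member.
Mrpl39: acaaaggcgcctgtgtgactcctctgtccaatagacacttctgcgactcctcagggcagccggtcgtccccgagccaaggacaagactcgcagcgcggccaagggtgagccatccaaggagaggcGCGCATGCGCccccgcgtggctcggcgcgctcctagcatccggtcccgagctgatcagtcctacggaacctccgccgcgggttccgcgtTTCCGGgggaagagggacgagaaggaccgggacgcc
Cox7a1: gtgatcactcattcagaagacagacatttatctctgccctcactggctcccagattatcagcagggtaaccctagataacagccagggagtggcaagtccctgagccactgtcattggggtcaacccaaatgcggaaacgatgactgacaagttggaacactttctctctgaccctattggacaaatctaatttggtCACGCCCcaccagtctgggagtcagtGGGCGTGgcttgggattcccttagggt
Uqcr11: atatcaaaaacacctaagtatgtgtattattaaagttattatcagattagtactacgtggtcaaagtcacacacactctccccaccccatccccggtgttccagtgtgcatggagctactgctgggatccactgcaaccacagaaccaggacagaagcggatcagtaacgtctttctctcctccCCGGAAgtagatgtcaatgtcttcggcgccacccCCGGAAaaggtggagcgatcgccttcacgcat
Mrpl52: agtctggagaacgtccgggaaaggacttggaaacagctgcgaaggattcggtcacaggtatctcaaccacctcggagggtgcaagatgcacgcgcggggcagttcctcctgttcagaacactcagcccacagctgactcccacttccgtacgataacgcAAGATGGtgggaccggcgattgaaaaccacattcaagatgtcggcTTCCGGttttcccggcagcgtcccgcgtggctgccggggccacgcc
Cox7b: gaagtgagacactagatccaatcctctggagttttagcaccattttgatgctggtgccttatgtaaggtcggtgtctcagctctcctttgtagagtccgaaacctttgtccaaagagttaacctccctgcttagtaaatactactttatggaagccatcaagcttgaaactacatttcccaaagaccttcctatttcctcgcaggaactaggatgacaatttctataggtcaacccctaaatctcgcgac
Mrpl39 held 1 NRF1 and 1 ETS match, Uqcr11 held 2 ETS matches, Cox7a1 held 2 KLF matches, Mrpl52 held 1 ETS and 1 YY1 match, and Cox7b held none of the 4 cores.

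Member pairs made up a small part of every list. In H3K27ac HiChIP they numbered 258 in MEF (0.424% of the list) and 784 in ES (1.04%). TKO cells had 821 without doxycycline (0.880%) and 735 after it (0.872%). In KLF4 HiChIP they numbered 84 at day 3 (0.354%), 17 at day 6 (0.420%) and 162 in ES (0.659%). In Hi-C there were 382 in MEF (0.167%) and 803 in ES (0.252%). As a share of listed counts, they took 0.378 ± 0.00428% (SD, n = 2) in the MEF H3K27ac libraries and 0.957 ± 0.00107% (SD, n = 2) in those of ES. The KLF4 libraries were at 0.347 ± 0.00710% (SD, n = 3) at day 3 and 0.632 ± 0.0176% (SD, n = 2, from 4 libraries of which 2 and 2 were counted as 1 sample) in ES. Replicates of a group were counted over the same list, so their closeness is partly built in and is no measure of reproducibility. In each assay the shares of the ES libraries were above those of the fibroblast lineage. Pairs at all annotated genes also took more of the ES lists: 48.9% against 27.2% in MEF for H3K27ac, 50.7% against 36.5% at day 3 for KLF4, and 19.4% against 14.9% for Hi-C. Annotation from TKO lists can raise the ES shares of members and of all genes, and its part was not tested.

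**Figure D1:**
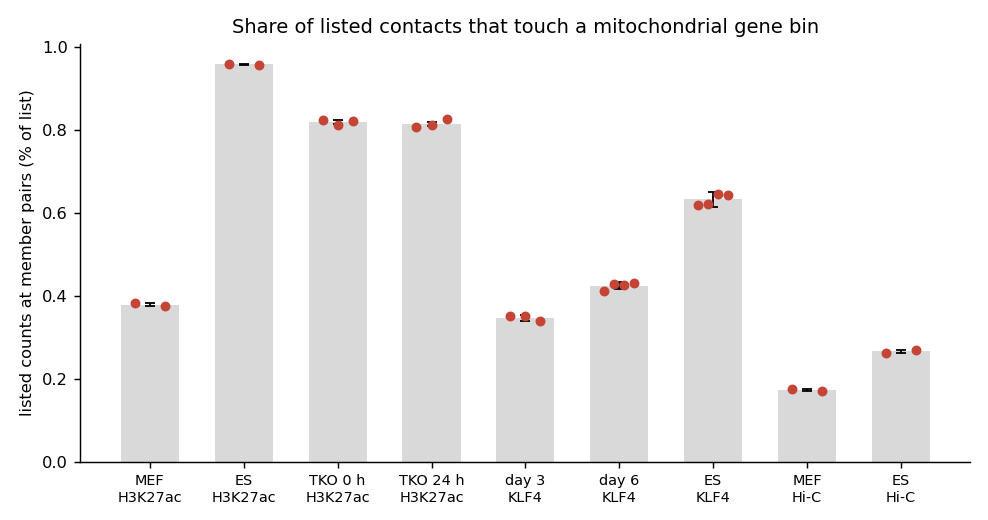
Percent of the counts in each interaction list that fall on member pairs, by group; bars and error bars are means and 1 SD over samples, with libraries that agreed within sampling noise averaged first, and points are single libraries. The ES H3K27ac libraries have a mean of 0.957% and the MEF libraries of 0.378%, and the TKO groups at 0 h and 24 h lie at 0.819% and 0.813%.

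The contacts of members had gene-rich partners. Seen from each member anchor, the partner bin held an annotated gene in 39.6% of ES H3K27ac contacts, against 31.6% seen from each annotated anchor. The values were 42.9% against 26.7% in MEF, 46.3% against 30.4% for KLF4 in ES, and 29.6% against 21.7% in ES Hi-C. Anchors of ES member pairs lay a median of 30 kb apart, as did those of annotated genes, and 36.5% of member pairs spanned at least 50 kb, against 28.9%. Contacts between 2 members were rare, at 3 of 784 member pairs in ES H3K27ac.

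The first comparison asks how H3K27ac contacts differ between fibroblasts and pluripotent cells. Of the 135 members, 112 (83.0%) had more listed pairs in ES than in MEF, 7 had fewer and 16 had equal numbers, while 65.4% of all annotated genes had more. The median member went from 1 pair in MEF to 4 in ES, and the median annotated gene from 1 to 3. In MEF 80 members (59.3%) had a listed pair, near the 57.7% of all genes, and in ES 123 (91.1%) had one, against 81.1%. The median log2 ratio of ES over MEF pairs, each with 1 added, was 1.32 over members and 1.00 over genes. The MEF list was also shorter (60870 against 75466 pairs) and its libraries shallower, and the part of depth in the counts was not tested. Nor was the part of taking gene names from TKO lists. With lists cut to equal length 101 members had more pairs in ES, with a median of 1.00 over members and 0.58 over genes. With 1 CPM cutoff for all chromosomes, in place of the authors' per-chromosome cutoff, the median was 1.00 in both.

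**Figure D2:**
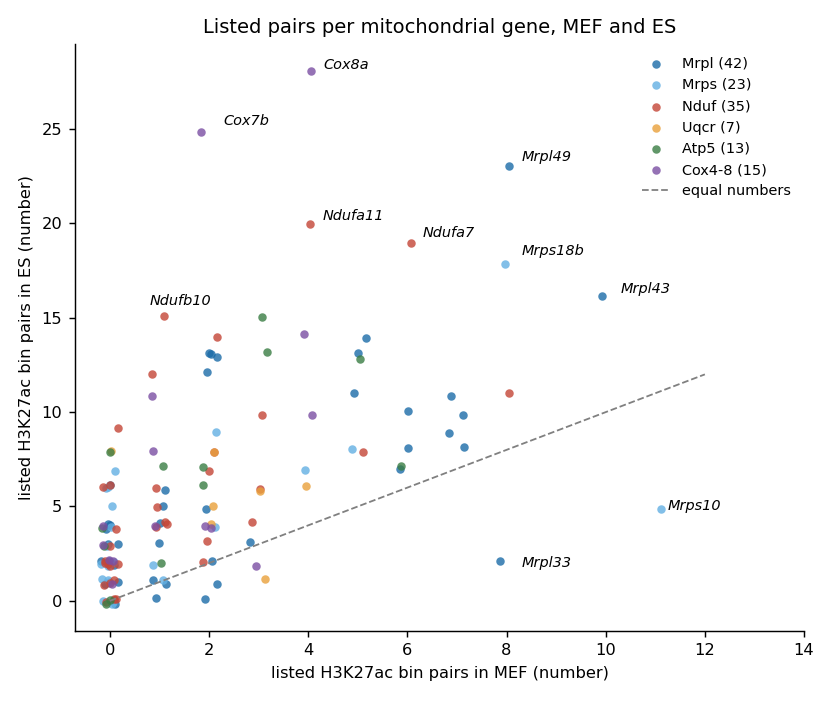
Listed H3K27ac bin pairs of each of the 135 members in MEF (x axis, number) and ES (y axis, number), coloured by family, with small random offsets against overplotting and a dashed line at equal numbers. 112 members lie above the line, with Cox8a and Cox7b highest, and Mrps10 and Mrpl33 lie farthest below it.

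The members with the most pairs in MEF, Mrps10 with 11 and Mrpl43 with 10, were of the mitochondrial ribosome. As families, Mrpl and Uqcr genes both had a median of 2 pairs in MEF, and Mrps genes a median of 0. Among Mrpl genes 29 of 42 had a pair in MEF and 38 in ES, with 113 and 256 pairs summed over genes, and 32 had more in ES. Among Mrps genes 8 of 23 had a pair in MEF and 20 in ES, with 34 and 94 pairs. Mrpl49, a large-subunit protein, shared its bin (chr19:6050001-6060000) with Fau and had 8 pairs in MEF and 23 in ES. In ES these reached up to 210 kb to lower and 280 kb to higher coordinates, and 15 of the 23 partner bins held annotated genes, Men1, Snx15 and Neat1 among them. Mrpl43 (10 in MEF, 16 in ES) and Mrpl4 (5 and 14) had the next most pairs over all 9 lists. The partners of Mrpl4 in ES included the bins of Icam1, Icam4, Icam5 and Dnmt1, of which Icam1 and Icam4 were also partners in MEF. Mrps18b, a small-subunit protein whose bin also held Atat1 and Ppp1r10, had 8 pairs in MEF and 18 in ES. Its longest ES contact spanned 410 kb to the bin of Pou5f1, the gene of the pluripotency factor OCT4, at 4.11 CPM (mean of 2 libraries), little above the authors' cutoff of 3. Mrps18a (5 and 8) and Mrps34 (2 and 9) followed. Mrps36, counted here by its symbol but known as a part of the 2-oxoglutarate dehydrogenase complex, had 0 and 7.

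The 7 members with fewer pairs in ES were mostly ribosomal. Mrps10 (chr17:47360001-47370000) had 11 pairs in MEF and 5 in ES, and Mrpl33 (chr5:31590001-31600000) had 8 and 2. The MEF pairs of Mrpl33 reached up to 600 kb, to a bin without an annotated gene at 3.45 and 4.76 CPM, and those in ES up to 40 kb. The same 600 kb pair was listed in MEF Hi-C, at a signal of 18.5 and 16.7, and in none of the other 7 lists. Mrpl38 (2 and 0), Uqcrc2 (3 and 1), Mrpl11 (2 and 1), Mrpl30 (1 and 0) and Cox4i2 (3 and 2) differed by 1 or 2 pairs.

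Among Nduf genes 19 of 35 had a pair in MEF and 32 in ES, and their sum went from 49 to 203. These include Ndufa4 and its paralog Ndufa4l2, taken by symbol and grouped apart from the complex I subunits and assembly factors. The Nduf median in MEF was 1 pair, the same as that of all genes. None of them had fewer pairs in ES. Among the 7 core subunits, which carry the redox centres, 5 had more pairs in ES and 2 were equal. Ndufs8, a core subunit, went from 2 to 14, and Ndufv1 from 8 to 11. Of 8 assembly factors 5 were annotated, all with more pairs in ES (4 in MEF, 23 in ES in sum), led by Ndufaf3 with 1 and 12. Among the 21 accessory subunits 19 had more in ES. Ndufa11 went from 4 to 20, Ndufa7 from 6 to 19 and Ndufb10 from 1 to 15. In MEF the single listed pair of Ndufb10 led to the adjacent bin of Msrb1, and this was also its strongest pair in ES.

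Among complex III genes 6 of 7 had more pairs in ES. Uqcr10 had 0 in MEF and 8 in ES, Uqcrc1 had 3 and 6, Uqcr11 had 4 and 6, and Uqcrc2, as above, had fewer. ATP synthase genes had 23 pairs in MEF and 85 in ES, with 11 of 13 higher in ES and 2 equal. Atp5b, the catalytic beta subunit, had 5 and 13, Atp5g2, a subunit of the c-ring, had 3 and 15, and Atp5j, a stalk subunit, had 3 and 13. Atp5k and Atp5s had no pair in either list.

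Complex IV genes had the largest single differences. Cox8a went from 4 to 28 pairs and Cox7b from 2 to 25, and 14 of the 15 Cox genes had more pairs in ES. The Cox8a pairs in ES reached up to 240 kb to lower and 370 kb to higher coordinates and included the bins of Otub1, Macrod1, Stip1 and Rcor2. Cox7b (chrX:106010001-106020000), whose bin also held Magt1, had 2 pairs in MEF, to the bins of Atp7a and Pgk1. Its 25 ES pairs reached up to 220 kb and 180 kb on the 2 sides, and 3 of their partner bins held annotated genes, Atp7a, Atrx and Pgk1. The bins of Cox8a and Cox7b lie on chromosome 19 and the X chromosome, where the median annotated gene had 9 and 5 ES pairs. Against the median of its own chromosome, 79 members were above and 39 below in ES, and 55 were above and 45 below in MEF.

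Of 6 complex IV isoforms that are known for restricted tissues 4 were annotated, and 3 of these had more pairs in ES. Cox6b2, the testis isoform, had 4 pairs in MEF and 14 in ES, Cox7a1, of heart and skeletal muscle, had 4 and 10, and Cox8b had 1 and 8. Cox4i2 had 3 and 2 and no H3K27ac peak in its bin. The ES pairs of Cox6b2 included the bins of Kmt5c and Rpl28, so that a listed contact of the bin is no statement on expression of the isoform.

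Of the 258 member pairs in MEF, 206 (79.8%, 95% Wilson interval 74.5 to 84.3%, for counting error only) were also listed in ES. The share was 62% for pairs at annotated genes and 29.4% for all MEF pairs. The last share also covers bins that were not listed in TKO cells, from which all annotated bins came. Part of the gap may follow from the annotation rule, which was not tested. The 206 pairs were 26.3% of the 784 in ES. The 578 pairs found in ES alone had a median of 5.03 CPM and spanned a median of 40 kb, and the 52 found in MEF alone 4.0 CPM and 50 kb. Shared pairs were stronger and shorter, with medians of 5.58 CPM in MEF and 8.36 CPM in ES at 20 kb.

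Strength was tested on the counts of pairs listed in both cell types, with edgeR's quasi-likelihood test and Benjamini-Hochberg adjustment over all pairs tested, and a pair was called at an adjusted p under 0.05. Of the 206 member pairs 70 were called (34.0%), against a background of 32.0% of the 17901 pairs tested, and 30.5% of pairs at annotated genes. Of these calls 63 were higher in ES and 7 lower, or 30.6% and 3.40%, where the background over all pairs was 17.6% and 14.4%. Over pairs at annotated genes 19.2% were higher and 11.3% lower. The median log2 change was 0.25 over member pairs and 0.02 over pairs at genes. TMM scaling places the median of all pairs at -0.04. On contact totals alone it was 0.21. The calls of member pairs were then 88 higher (42.7%) and 6 lower (2.91%), against 26.99% and 7.97% of all pairs. DESeq2 called 28 of the 132 member pairs it adjusted. Of these calls 26 were higher (19.7%) and 2 lower (1.52%), against 12.51% and 6.85% of all pairs it adjusted. Without MEF replicate 2 the edgeR median log2 change was 0.29 over member pairs and -0.0034 over all pairs.

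Of the 74 members tested 30 had called pairs that rose only, 3 had pairs that fell only, 2 had both, and 39 had none. Among 5948 annotated genes tested, 28.4% had rising pairs only and 14.7% falling pairs only. Rising pairs only were found at 11 of 25 Mrpl, 3 of 8 Mrps, 5 of 19 Nduf, 2 of 5 Uqcr, 4 of 7 Atp5 and 5 of 10 Cox genes. Pairs of 1 member share its bin and are not independent.

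**Figure D3:**
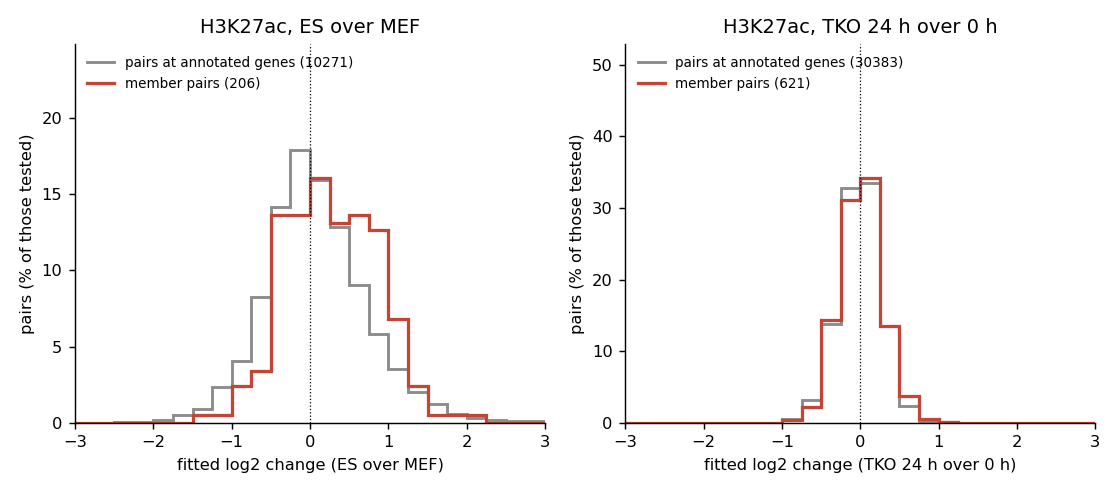
Distribution of fitted log2 changes (x axis) as percent of the pairs tested (y axis) in ES over MEF, left, and TKO 24 h over 0 h, right, for member pairs in red and pairs at annotated genes in grey. In ES over MEF the member pairs have a median of 0.25 against 0.02; in TKO the medians are 0.016 and -0.0028.

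The strongest rise by p-value was at Mrpl45, a large-subunit protein that lies near the ribosome's exit tunnel (chr11:97310001-97320000). Its contact with the bin of Npepps, 30 kb away, was at 3.71 and 5.02 CPM in the 2 MEF libraries and at 19.2 and 21.6 CPM in the 2 ES libraries. The groups did not overlap, and the log2 change was 2.14 ± 0.20 (SE; edgeR adjusted p = 1.97e-12). Mrpl51, a large-subunit protein in a bin with Ncapd2, rose at 2 pairs. The pair with a bin 20 kb away was at 4.65 and 4.93 CPM in MEF and 19.2 and 18.6 CPM in ES (log2 1.69 ± 0.19, SE; edgeR adjusted p = 4.55e-10). The pair with the bin of Gapdh, the glycolytic gene often used as a reference, was at 3.76 and 5.72 CPM in MEF and 14.7 and 14.6 CPM in ES (log2 1.29 ± 0.20, SE; edgeR adjusted p = 8.90e-07). Ndufaf7, a complex I assembly factor in a bin with Cebpz, was at 5.85 and 4.70 CPM in MEF and 17.9 and 22.1 CPM in ES with the bin of Cebpzos (log2 1.81 ± 0.24, SE). Atp5b with the adjacent bin of Baz2a was at 6.01 and 10.6 CPM in MEF and 22.04 and 25.2 CPM in ES (log2 1.11 ± 0.17, SE). Cox6b2 with the adjacent bin of Kmt5c was at 3.16 and 7.81 CPM in MEF and 17.6 and 14.9 CPM in ES (log2 1.36 ± 0.21, SE). In each of these pairs every ES library was above both MEF libraries. The pairs were picked by smallest p, so this separation is no further support. Their calls held in every alternative that tested them.

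The 7 pairs that fell belonged to Mrpl52, Mrpl48, Mrpl2, Mrpl24 and Ndufa4l2. Mrpl52 with the adjacent bin of Mmp14, a membrane protease of fibroblasts, was at 14.8 and 19.9 CPM in MEF and 12.9 and 11.1 CPM in ES (log2 -0.89 ± 0.17, SE; edgeR adjusted p = 5.01e-05). A second Mrpl52 pair to the next bin fell too (log2 -0.90), while the pair on the other side, with the bin of Slc7a7, rose (log2 0.75). Ndufa4l2, a paralog of Ndufa4 that is known to be induced by low oxygen, was at 7.45 and 8.53 CPM in MEF and 5.17 and 5.02 CPM in ES with the bin of Stac3 (log2 -1.004 ± 0.22, SE). Mrpl2 was at 6.63 and 11.6 CPM in MEF and 3.90 and 4.78 CPM in ES (log2 -1.27 ± 0.26, SE), with an adjusted p of 0.191 without MEF replicate 2. Mrpl24 had 1 pair that fell (log2 -0.88) and 1 that rose (log2 1.17). The falling one was not called without MEF replicate 2, without ES replicate 2, or by DESeq2. Mrpl48 fell at 2 pairs (log2 -0.84 and -0.67), neither called by DESeq2. Of the 7 falling pairs DESeq2 called those of Mrpl52 with Mmp14 and of Ndufa4l2. It gave the Mrpl2 pair no adjusted p and did not call the other 4.

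**Figure D4:**
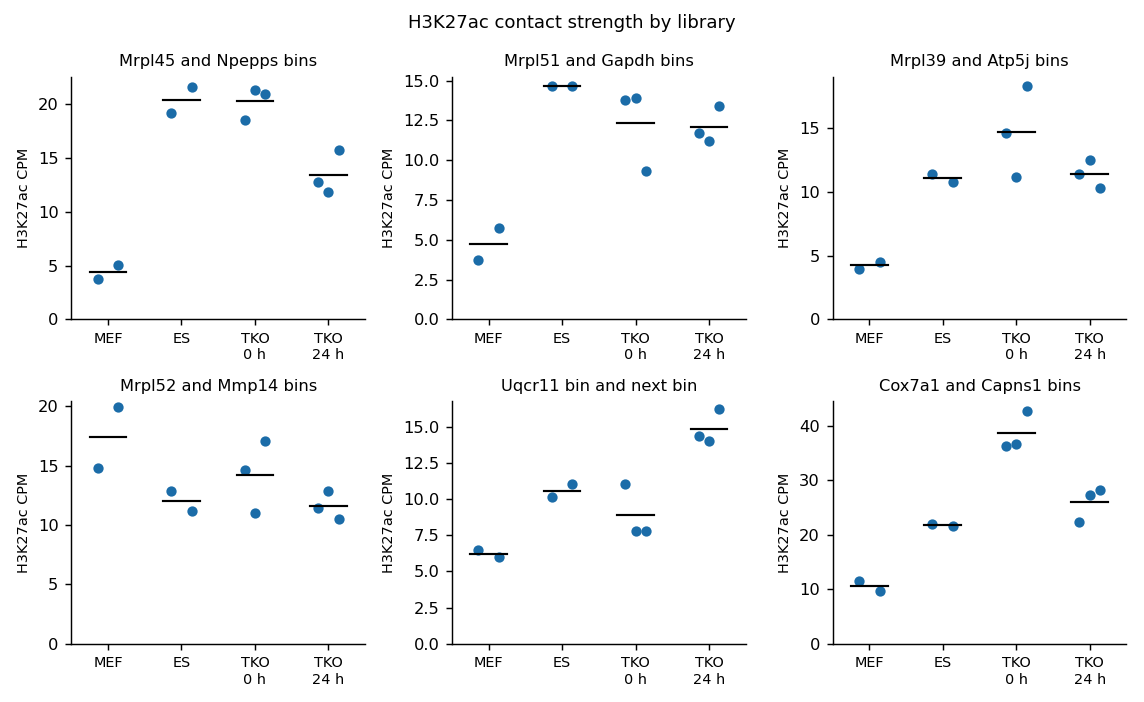
H3K27ac CPM (y axis) of 6 member pairs in each library of MEF, ES, TKO 0 h and TKO 24 h; points are libraries and lines are means over libraries. The Mrpl45 and Npepps pair lies between 3.71 and 5.02 in MEF, 19.2 and 21.6 in ES, 18.5 and 21.3 at 0 h, and 11.8 and 15.7 at 24 h.

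Only 4 bin pairs in the H3K27ac lists joined 2 members. The one with the highest ES value linked Mrpl39, a large-subunit protein, to Atp5j over 100 kb on chromosome 16, and the Atp5j bin also holds Gabpa, which encodes the DNA-binding subunit of GABP. It was at 3.97 and 4.50 CPM in MEF and 11.4 and 10.7 CPM in ES, and it rose (log2 1.01 ± 0.26, SE; edgeR adjusted p = 0.00175), a call that DESeq2 did not make. In TKO cells it was at 14.6, 11.2 and 18.3 CPM at 0 h and 11.4, 12.5 and 10.3 CPM at 24 h. The libraries overlapped and the pair was not called (log2 -0.25 ± 0.18, SE; edgeR adjusted p = 0.605). It was also in the day 3 KLF4 list, at 3.16, 4.80 and 5.37 CPM, and in the ES Hi-C list, and in neither the ES KLF4 nor the MEF Hi-C list. Mrpl58 and Atp5h, in adjacent bins of chromosome 11, were listed in ES (7.74 CPM), in both TKO lists and at day 3, and not in MEF. Ndufb10 and Mrps34, 170 kb apart, were listed near the cutoff in ES (3.14 CPM) and at 24 h (4.02 CPM). Ndufs8 and Ndufv1, both core subunits of complex I and 100 kb apart, were listed at 0 h alone (4.51 CPM).

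The second comparison asks what 24 h of doxycycline changes in TKO cells. The lists of members were much alike: 621 of the 735 pairs at 24 h (84.5%, Wilson interval 81.7 to 86.9%) were also listed at 0 h, against 83.5% of pairs at annotated genes. By number of pairs, 69 members had fewer at 24 h, 32 had more and 34 were equal. The shares, 51.1% and 23.7%, were near those of all genes, 48.4% and 23.8%. The 24 h list was also shorter, at 84256 pairs against 93248 at 0 h. Its libraries held 83.7 ± 16.8 M contacts (SD, n = 3), against 92.1 ± 15.7 M (SD, n = 3). The part of depth in these numbers was not tested. Cox genes had fewer pairs in 10 of 15 cases, Atp5 genes in 9 of 13 and Nduf genes in 19 of 35, while Mrps genes were even at 9 and 9. Atp5o, a stalk subunit, went from 12 pairs to 6, and Atp5g2 (22 to 17), Ndufs8 (21 to 16), Cox8a (19 to 14) and Ndufb10 (16 to 11) each had 5 fewer. Mrpl28 went from 4 to 8, and 9 members had 2 more, among them Mrpl18 (11 to 13) and Mrpl57 (7 to 9). Cox7b had 25 pairs at both times, as in ES.

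Of the 621 member pairs tested 14 were called (2.25%), against a background of 2.62% of 67728 pairs. They were 8 higher and 6 lower at 24 h, where the background was 0.576% higher and 2.04% lower. The split depends on scaling: on contact totals alone 4 were higher (0.644%) and 17 lower (2.74%), against 0.229% and 3.94% of all pairs. DESeq2 called 0 of the 24 member pairs it adjusted, of which 6 had an unadjusted p under 0.05. It called 3.57% of all pairs it adjusted. The 14 pairs belonged to 8 of the 121 members tested, 3 with rising (2.48%) and 5 with falling pairs (4.13%). Among 10518 annotated genes tested, 1.58% had rising pairs only and 5.25% falling pairs only.

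The 8 rising pairs lay at Uqcr11, Ndufa11 and Mrpl4. Uqcr11, a small subunit of complex III whose promoter held 2 ETS matches above, rose with the adjacent bin (log2 0.79 ± 0.16, SE; edgeR adjusted p = 0.000379). That pair was at 11.0, 7.80 and 7.82 CPM at 0 h and 14.3, 14.02 and 16.2 CPM at 24 h, so the groups did not overlap. It was called in every alternative that tested it, and a second Uqcr11 pair rose too (log2 0.61), though its libraries overlapped. Ndufa11, an accessory subunit of complex I, rose at 5 pairs within 30 kb of its bin, with log2 changes of 0.56 to 1.12. The largest was with the bin 30 kb away, at 3.16, 5.91 and 3.65 CPM at 0 h and 9.81, 8.96 and 6.61 CPM at 24 h (log2 1.12 ± 0.25, SE; edgeR adjusted p = 0.00330). It was not called without 0 h replicate 1 (edgeR adjusted p = 0.0768), nor was the pair 20 kb to lower coordinates (edgeR adjusted p = 0.0521). The pair with the adjacent bin was lost without 24 h replicate 2, and the remaining 2 were each lost without 0 h replicate 2, 0 h replicate 3 or 24 h replicate 1, with edgeR adjusted p up to 0.157. The pair with the adjacent bin was also not called by DESeq2 or on contact totals. Of the remaining 2, the pair 20 kb to higher coordinates was also lost on contact totals and without 24 h replicate 2. The pairs 10 and 20 kb to lower coordinates had also been called higher in ES than in MEF, and neither of those calls held without MEF replicate 2. Mrpl4 rose with a bin 60 kb away (log2 0.72).

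The 6 falling pairs lay at Mrpl45 (2 pairs), Ndufaf3, Cox5a, Mrps5 and Cox7a1. Mrpl45 fell with a bin 40 kb away, from 18.6, 22.9 and 16.3 CPM to 9.22, 12.7 and 11.3 CPM (log2 -0.67 ± 0.14, SE; edgeR adjusted p = 0.000741). Its pair with the Npepps bin, the one with the clearest rise from MEF to ES, was at 18.5, 21.3 and 20.9 CPM at 0 h and 12.7, 11.8 and 15.7 CPM at 24 h (log2 -0.49 ± 0.14, SE; edgeR adjusted p = 0.0229). Ndufaf3, a complex I assembly factor, fell with a bin 90 kb away, from 10.2, 12.04 and 13.55 CPM to 5.72, 6.96 and 5.96 CPM (log2 -0.78 ± 0.19, SE; edgeR adjusted p = 0.00451), and this call held in every alternative that tested it. Cox7a1 with the adjacent bin of Capns1, the strongest member pair at 0 h, was at 36.3, 36.8 and 42.9 CPM at 0 h and 22.4, 27.4 and 28.3 CPM at 24 h (log2 -0.40 ± 0.12, SE; edgeR adjusted p = 0.0280). From MEF to ES the same pair had risen, from 11.6 and 9.67 CPM to 22.1 and 21.7 CPM (log2 0.96 ± 0.16, SE; edgeR adjusted p = 4.28e-06). Cox5a fell by 0.56 and Mrps5 by 0.48 on the log2 scale. The groups did not overlap in any of these 6 pairs. The pairs were picked by p-value and the share over all pairs was not counted, so this is no further support. DESeq2 gave the Ndufaf3 pair no adjusted p and did not call the other 5. The Cox5a call was also lost without 0 h replicate 2 or 24 h replicate 2 (edgeR adjusted p up to 0.189). The Npepps call was lost without 0 h replicate 2 or 3, and those of Cox7a1 and Mrps5 without 0 h replicate 1 or 3, and all of these 3 without 24 h replicate 1 or 2 (edgeR adjusted p up to 0.287).

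The third comparison asks where KLF4 contacts lie along reprogramming. KLF4 is one of the 4 OKSM factors, which the cassette expresses at days 3 and 6. At day 3, 42 members (31.1%) had a listed KLF4 pair, against 40.1% of all genes, at day 6 15 (11.1% against 12.5%), and in ES 76 (56.3% against 57.4%). Members were thus at or below the level of annotated genes in each KLF4 list, whereas they were above it in ES H3K27ac. The day 6 list was much shorter, at 4047 pairs against 23720 at day 3 and 24589 in ES. Of the 135 members 35 had a pair in ES alone, 4 at day 3 alone and 12 in all 3 lists. The 12 were Cox7a1, Mrpl18, Mrpl43, Mrpl49, Mrpl54, Mrpl58, Mrps10, Mrps14, Ndufa7, Ndufb10, Ndufb8 and Ndufs3. From day 3 to ES 54 members (40.0%) gained pairs in number and 13 (9.63%) had fewer, against 39.2% and 16.3% of all genes. Cox7b and Mrpl57 both went from 0 to 6, and 4 members gained 4, among them Mrpl14 (1 to 5). Mrpl58 and Ndufb8 both went from 5 to 1, and Atp5h from 3 to 0. At day 3 the strongest KLF4 pair of a member was that of Mrps18b with the adjacent bin, at 20.8, 15.7 and 11.9 CPM, and the next was that of Ndufb8 with the adjacent bin of Hif1an, at 14.03, 17.2 and 13.49 CPM.

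KLF4 pairs of members were largely H3K27ac pairs as well. In ES 150 of 162 (92.6%, Wilson interval 87.5 to 95.7%) were also in the H3K27ac list of ES, against 80.4% of KLF4 pairs at annotated genes. They were 19.1% of the 784 H3K27ac member pairs. Of the 84 pairs at day 3, 46 (54.8%, Wilson interval 44.1 to 65.0%) were also listed in ES, against 48.3% for annotated genes, and of the 17 at day 6, 15 (88.2%, Wilson interval 65.7 to 96.7%) were, against 70.7%, which lies within that interval. The KLF core was in the promoter window of 10 of 66 members with an ES KLF4 pair (15.2%, Wilson interval 8.44 to 25.7%) and of 3 of 43 without (6.98%, Wilson interval 2.40 to 18.6%), and the intervals overlap.

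Few KLF4 member pairs could be tested. Between day 3 and ES 46 were tested and 2 called (4.35%), against a background of 7.20% of 7387 pairs (3.02% higher and 4.18% lower in ES). The comparisons of day 3, day 6 and ES below share libraries. A pair of Mrpl18, in a bin with Tcp1 and Pnldc1, was at 6.02, 3.87 and 2.45 CPM at day 3 and 7.43, 3.797, 6.72 and 6.39 CPM in ES (log2 0.87 ± 0.27, SE; edgeR adjusted p = 0.0278). A pair of Mrps14 was at 8.93, 7.28 and 5.35 CPM at day 3 and 4.77, 4.51, 5.46 and 4.30 CPM in ES (log2 -0.63 ± 0.21, SE; edgeR adjusted p = 0.0420). In both pairs the libraries of the 2 groups overlapped. The Mrpl18 call was lost without day 3 replicate 2 or 3 or ES replicate 1, 3 or 4 (edgeR adjusted p up to 0.343). The Mrps14 call was lost without any 1 of the 3 day 3 libraries or ES replicate 1, 2 or 4 (edgeR adjusted p up to 0.158). On contact totals alone neither was called, where 3.84% of all pairs were. DESeq2 called 0 of 20, with 1 at an unadjusted p under 0.05, against 2.44% of all pairs it adjusted. With edgeR 0 of 15 member pairs were called between day 6 and ES, with 3 at an unadjusted p under 0.05, against a background of 3.37%. Between day 3 and day 6, 0 of 10 were called, with 2 at an unadjusted p under 0.05, against 5.33%. DESeq2 called 0 of 1 and 0 of 7, with 0 at an unadjusted p under 0.05 in both. These calls depend on scaling, since on contact totals alone 10 of the 15 were higher in ES and 7 of the 10 lower at day 6, and the median of all pairs moved by 0.60. On the same totals 55.8% of all pairs were called higher in ES and 61.6% lower at day 6. The pair with the smallest p in both comparisons was that of Mrpl54 with a bin 20 kb away. It was at 7.30, 7.55 and 6.58 CPM at day 3, at 3.09, 4.33, 4.31 and 1.88 CPM at day 6 and at 10.2, 11.4, 5.47 and 6.27 CPM in ES, with edgeR adjusted p = 0.0919 for ES against day 6 and 0.131 for day 6 against day 3.

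Hi-C does not select for a mark. In MEF 91 members (67.4%) had a listed Hi-C pair, against 78.1% of all genes, with a median of 2 pairs against 3. In ES the median was 5 against 6. More pairs in ES than in MEF were found for 104 members (77.0%) and fewer for 11, against 73.5% and 11.7% of all genes. Of the 382 MEF pairs 277 (72.5%, Wilson interval 67.8 to 76.7%) were also in the ES list, against 70.8%. With edgeR 0 of 274 member pairs were called, with 13 at an unadjusted p under 0.05, against a background of 0.0322% of 124204 pairs, and DESeq2 called 0 of 277, with 1 at an unadjusted p under 0.05. The smallest p was at Cox6b2 with the bin of Fam71e2, whose deposited Hi-C signal was 63.5 and 92.4 in MEF and 40.1 and 47.9 in ES (log2 -0.87 ± 0.23, SE; edgeR adjusted p = 0.221). In H3K27ac HiChIP the same pair had risen from 5.003 and 4.83 CPM to 8.25 and 9.43 CPM (log2 0.75; edgeR adjusted p = 0.00877), a call lost without MEF replicate 2 or ES replicate 2. Of the ES H3K27ac member pairs 45.9% were in the ES Hi-C list, against 51.1% for annotated genes.

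Other genes of the same pathways, taken from lists drawn up by function, mostly had more H3K27ac pairs in ES as well. Of 6 succinate dehydrogenase (complex II) genes 4 were annotated, and all 4 had more pairs in ES than in MEF. Of 18 cytochrome c, complex III and complex IV partner genes 15 were annotated, 12 with more pairs in ES and 3 equal. Uqcc3 had the most, with 17 in MEF and 36 in ES. Of 13 genes for mitoribosome proteins under other names and for mitochondrial translation 11 were annotated, 10 with more in ES, and Aurkaip1 had 6 in MEF and 4 in ES. Of 12 genes for mitochondrial transcription and its regulators 10 were annotated and all had more in ES. One of them, Gabpa, lies in the member bin of Atp5j and repeats its values. Tfam, which packages mitochondrial DNA, had 0 and 2, Nrf1 0 and 2, and Esrra 4 and 9. Over all annotated genes 65.4% had more, as given above.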

How the data were processed

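HiChIP and Hi-C contacts of 25 mouse libraries were read from 9 interaction lists of 10 kb bin pairs, 1 list per group. Reads were aligned to mm10 with Bowtie2 2.2.3, per the submitters' processing notes, and the contact caller is not given in the sources used here. The authors deposited raw read counts per bin pair and library, summed neither over replicates nor over groups. The deposited HiChIP CPM (counts scaled by the contact total of the pair's own chromosome) has a cutoff near 3 in single libraries. It was at least 3.00 in every H3K27ac library and in KLF4 replicates 1 and 2. Its lowest value was 0 in day 3 replicate 3 and in ES KLF4 replicates 3 and 4. In day 6 replicates 3 and 4 it was 0.567 and 0.343. KLF4 replicates 1 and 2 were thus selected by the cutoff and replicates 3 and 4 were not, and the effect on the KLF4 tests was not tested. The deposited Hi-C column under the same name is a signal, made by the authors from counts with constants that are not stated and with a floor of 15, so Hi-C values were compared within Hi-C alone. The authors' distance-normalised ratio was not used. The deposited p-values lay under 0.1 in HiChIP and 0.01 in Hi-C and were not tested further. The deposited false discovery rate (FDR) was under 0.1 for 0.775% of member pairs in MEF H3K27ac and 6.12% in ES H3K27ac. Over all pairs these shares were 1.84% and 5.90%. Among member pairs it was 9.50% in TKO at 0 h, 6.53% at 24 h, 15.7% in MEF Hi-C and 9.22% in ES Hi-C. In each KLF4 list it was 0%. Most listed member pairs thus did not reach that FDR.

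Gene names came from the 2 TKO lists. The members and gene lists were chosen with earlier results of these data known. Counts of pairs listed in both groups were fitted with edgeR 4.0.16 in R 4.3.3 (quasi-likelihood test, filterByExpr, TMM on contact totals, no replicate block), with Benjamini-Hochberg adjustment over all pairs and a threshold of 0.05. Replicates whose counts agreed within sampling noise by a chi-square test were counted as 1 sample: TKO 0 h replicates 2 and 3, TKO 24 h replicates 1 and 3, and ES KLF4 replicates 1 and 2, and 3 and 4. The day 6 KLF4 libraries did not differ by that test and were kept apart. CPM are printed for every library. Scripts were tested on simulated data.

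Shares carry Wilson 95% intervals, which cover counting error only, since reads were amplified and carry no molecular identifiers. Named genes were the 3 of each family with the most listed pairs over the 9 lists, those with the largest gain or loss of pairs, those at up to 6 called pairs in each direction by smallest p (or at the smallest p where none was called), those in pairs joining 2 members or strongest in a list, the restricted complex IV isoforms and the assembly factors as a group. Any other gene named was chosen after its values were seen. Alternatives were DESeq2 1.42.0, other scaling, no filter, separate libraries, leaving out each library, a replicate block, anchors at least 20 kb apart, bins without a non-member gene, looser overlap, equal list lengths and 1 cutoff per library. Promoter windows of 250 bases came from the RefSeq table for GRCm38.p6.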

Additional observations from a re-analysis of the deposited data

How the results depend on the processing

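Of the 70 H3K27ac pairs called between MEF and ES, 35 lay in bins without a non-member gene, where 99 were tested. DESeq2 called 28 of 132, against 19.4% of all pairs it adjusted. With anchors at least 20 kb apart edgeR called 42 of 132 member pairs and 3368 of all 11598. Leaving out 1 library gave 36 to 61. The median log2 change without 1 library was 0.22 to 0.29 over member pairs and 0.02 to 0.06 over pairs at genes. The 14 TKO calls became 7 of 302, 0 of 24 and 9 of 460 under the same 3 settings. Over all pairs DESeq2 called 3.57%, and edgeR 882 of 46574 with anchors at least 20 kb apart. Without 1 library, where 2 samples per group remained, 7 to 14 of 621 member pairs and 1028 to 1205 of all pairs were called. The 2 KLF4 calls between day 3 and ES became 1 of 19, 0 of 20 and 1 of 28. Over all pairs DESeq2 called 2.44%, and edgeR 342 of 4357 with anchors at least 20 kb apart. On contact totals 0 of 46 member pairs were called, against 3.84% of all pairs. Without 1 library 0 to 1 of 46 member pairs and 135 to 578 of all 7387 pairs were called. For ES against day 6 the count of 0 became 10 on contact totals and 0 to 1 without 1 library (1 without ES replicate 3), and for day 6 against day 3 it became 7 on contact totals. Of all pairs 55.8% and 61.8% were called on contact totals in these comparisons. Hi-C stayed at 0 under every setting run.

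Deviations of same-numbered libraries from their group means correlated between -0.05 and 0.04. Listed pairs had medians of 11 to 47 counts, so counting noise limits this check. It cannot settle whether replicate numbers pair the samples. With a replicate block the calls were 73 of 206 between MEF and ES and 15 of 616 in TKO. In KLF4 they were 1 of 44 between day 3 and ES, 1 of 15 between day 6 and ES and 0 of 10 between day 3 and day 6. In Hi-C 0 of 274 were called. Over all pairs the calls were, in the same order, 5879 of 17901, 2024 of 67381, 335 of 7247, 127 of 2004, 78 of 2546 and 74 of 124204.

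The 79.8% of MEF pairs also listed in ES became 91.5% with anchors 1 bin apart allowed, 73.6% with lists of equal length, 72.8% in bins without a non-member gene and 84.9% with 1 cutoff per library. The 84.5% in TKO became 95.6% and 87.8% with the first and last of these, and the 54.8% at day 3 became 82.1% with the first. The median log2 ratio of 1.32 became 0.49 with 5 added (0.29 over all genes), and 1.00 with equal lengths, with anchors at least 20 kb apart and with 1 cutoff. On contact totals the TKO calls turned from 8 higher and 6 lower to 4 and 17, and their median log2 from 0.016 to -0.092; for day 6 against day 3 the median went from 0.050 to -0.56 on contact totals and to -0.13 with anchors at least 20 kb apart. Over all pairs the medians on contact totals were -0.098 for TKO and -0.58 for day 6 against day 3. None of the pairs given with a standard error in the report changed sign. Shallower libraries limit which pairs are listed, so a pair missing from a list was not detected at that depth.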
